A study of Mus musculus with 12 samples.

Results

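The cytosolic ribosomal protein genes are the protein-coding mouse genes whose symbols are Rpl or Rps followed by a number, together with Rplp0, Rplp1, Rplp2 and Rpsa. Ribosomal S6 kinases, Rps19bp1 and symbols marked as pseudogenes or processed copies were left out. The rule gave 84 genes, 52 of the large and 32 of the small subunit, among the 43430 genes of the deposited table. Of these, 82 had a value of at least 1 RPKM (reads divided by gene length in kilobases and by library size in units of 1000000 reads) in at least 4 libraries and were tested, 50 of the large and 32 of the small subunit. Rpl10l was listed at 0 in every library and Rpl39l had at most 26 reads in any library.

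The libraries hold polyadenylated RNA of alveolar macrophages, which patrol the airway side of the lung, from a mouse model of lung transplantation. Of the 12 libraries, 4 are from naive lungs, 4 were taken 2 h and 4 were taken 24 h after blood flow to the graft was restored. All are labelled as alveolar macrophages of male mice aged 14 weeks, whose genotype is given as Cx3cr1gfp/+B6, so the naive group has the reporter allele as well, in which green fluorescent protein replaces a copy of the fractalkine receptor gene. There is no group with surgery but without reperfusion among these libraries. In the titles of the reperfused groups stands "Allo", a term left undefined, and the animals behind each library are not stated.

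A ribosome is built from a large and a small subunit, each a core of ribosomal RNA covered by many small proteins that are needed in nearly equal numbers. Messenger RNAs of ribosomal proteins belong to the most abundant of a cell and typically begin with a run of pyrimidines, the 5′ terminal oligopyrimidine (TOP) tract, through which the kinase mTOR and the RNA-binding protein Larp1 control their translation. In mammals these genes have left many processed pseudogenes, intronless copies of their mRNA scattered over the genome, so short reads of a member can match a copy.

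Copies of this kind were looked for among the annotated transcripts, and 747 were found with at least 90% identity over at least 50% of a member's coding length. They belonged to 78 of the 84 members, with a median of 5.5 copies a member and 57 for Rpl21. Rpl8, Rps3, Rps9, Rpl3l and Rpl39l were among the 6 with none. The 5 pairs printed here are chosen because their copies were at or near 0 reads in the naive libraries and held reads in every 2 h library. Each line is a stretch of 60 bases of the coding sequence, from the annotated transcripts of GRCm38 (mm10), in the direction of transcription, with the bases that differ between member and copy in capitals. Coding bases are counted from 1 at the start codon.
Rplp0, coding bases 388 to 447: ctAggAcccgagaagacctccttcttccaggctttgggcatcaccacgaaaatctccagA
Gm8730, the same stretch: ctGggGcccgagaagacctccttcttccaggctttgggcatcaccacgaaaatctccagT
Rpl26, coding bases 118 to 177: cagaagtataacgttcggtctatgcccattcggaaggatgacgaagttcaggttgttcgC
Gm15772, the same stretch: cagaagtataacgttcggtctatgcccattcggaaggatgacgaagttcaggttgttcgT
Rps18, coding bases 312 to 371: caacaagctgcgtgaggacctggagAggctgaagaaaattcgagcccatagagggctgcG
Gm10260, the same stretch: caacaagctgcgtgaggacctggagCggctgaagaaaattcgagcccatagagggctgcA
Rps7, coding bases 1 to 60: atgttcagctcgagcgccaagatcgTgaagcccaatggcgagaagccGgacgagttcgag
Gm6472, the same stretch: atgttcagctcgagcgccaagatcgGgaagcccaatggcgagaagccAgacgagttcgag
Rpl3, coding bases 1 to 60: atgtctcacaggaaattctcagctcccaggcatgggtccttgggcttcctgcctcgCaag
Rpl3-ps1, the same stretch: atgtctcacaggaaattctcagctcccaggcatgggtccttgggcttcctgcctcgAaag
Over the aligned coding sequence, Gm8730 differed from Rplp0 at 12 of 951 bases, Gm15772 from Rpl26 at 2 of 435, Gm10260 from Rps18 at 4 of 456, Gm6472 from Rps7 at 3 of 582 and Rpl3-ps1 from Rpl3 at 2 of 1209. A read that covers none of these positions cannot be given to the member or the copy from its bases alone. Gm8730 lies on chromosome 8 (102864845 to 102865798), Gm15772 on chromosome 5 (3236431 to 3236868), Gm10260 on chromosome 13 (97760072 to 97760632), Gm6472 on chromosome X (152909505 to 152910155) and Rpl3-ps1 on chromosome X (13202571 to 13203780). Gm10260 is annotated as protein-coding and the other 4 as processed pseudogenes, and Gm9625, a second copy of Rplp0 on chromosome 13, showed the same pattern.

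Transcription starts are shown for some of the members that later sections turn on. Sequences are from RefSeq (GRCm38.p6), for 64 of the 84 members, and run from 10 bases before the annotated start to 19 bases after it, with a pyrimidine run in capitals where there is one. Rpl35a has 3 annotated starts, and only the one with a run is printed. Among members not printed, Rpsa, Rpl41, Rpl11 and Rpl36al have no run and were higher at 24 h than in naive. Of those printed, Rps27 has a run and was lower. The printed starts therefore do not show how runs go with rises. In all, 16 of 29 tested members with a run and 14 of 33 without one were higher at 24 h.
Rps2, chr17:24720053-24720082, plus strand: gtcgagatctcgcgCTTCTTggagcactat
Rps6, chr4:86857348-86857377, minus strand: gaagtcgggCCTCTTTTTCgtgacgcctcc
Rps27, chr3:90213629-90213658, minus strand: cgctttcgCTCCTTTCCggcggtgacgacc
Rpl14, chr9:120571507-120571536, plus strand: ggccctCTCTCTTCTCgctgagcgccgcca
Rpl22l1, chr3:28805498-28805527, plus strand: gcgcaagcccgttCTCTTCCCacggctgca
Rpl35a, chr16:33056472-33056501, plus strand: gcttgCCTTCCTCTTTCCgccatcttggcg
Rpl10, chrX:74270806-74270835, plus strand: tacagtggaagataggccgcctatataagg
A run was counted where a C followed by at least 4 C or T began within 5 bases of any annotated start of a gene. It was found for 29 of 64 members (45.3%), against 21.2% of the 27025 genes with a start in the same table. The hexamer CGGAAG, the core of sites bound by ETS-family factors, stood on either strand of the 300 bases around the start in 43 of 64 members (67.2%), against 18.8% of all genes in windows of the same length. Its reverse complement CTTCCG can overlap a pyrimidine run. These are matches of letters and not measured sites.

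Library totals, recovered from the steps of the RPKM values, were 6112586 to 8796071 reads in naive, 7242824 to 10347265 at 2 h and 9129420 to 11997945 at 24 h, so depth moved with the groups. All 12 alveolar macrophage markers examined were tested, and their summed level was 10029 to 10589 RPKM in naive, 6699 to 8058 at 2 h and 9023 to 10683 at 24 h. Chil3 made up most of this sum, with means of 7780 RPKM in naive, 4970 at 2 h and 7802 at 24 h. Single markers moved more than their sum, with 2 of the 12 higher and 8 lower at 24 h than in naive. At 2 h 1 was higher and 5 were lower than in naive. Over all tested genes 25.3% were higher and 20.6% lower at 24 h, and 14.7% higher and 22.0% lower at 2 h. Of other cell types the summed levels of 5 neutrophil markers were 14.1 to 20.8 RPKM in naive, 13.2 to 22.3 at 2 h and 30.3 to 37.1 at 24 h, of which S100a8 made up most and Ly6g was at or near 0. Of the 2 neutrophil markers tested 1 was higher and 1 lower at 24 h, S100a8 with 29.8 ± 2.74 RPKM at 24 h and 10.2 ± 2.54 RPKM in naive, and Csf3r with 2.01 ± 0.548 RPKM at 24 h and 6.51 ± 0.841 RPKM in naive (SD, n = 4 each). Lymphocyte markers summed to 7.36 to 11.4 RPKM in naive, 2.22 to 6.06 at 2 h and 1.09 to 2.14 at 24 h, and 3 interstitial macrophage markers to 5.55 to 9.13, 0.727 to 1.62 and 0.787 to 2.47 RPKM in the same order, with 3 of 3 lower at both times than in naive. The 5 epithelial markers summed to 55.9 to 60.2 RPKM in naive, 47.0 to 66.8 at 2 h and 22.8 to 33.1 at 24 h. Of 3 tested, 1 was lower at 24 h, Epcam with 12.2 ± 2.91 RPKM at 24 h and 42.5 ± 2.25 RPKM in naive (SD, n = 4 each). The fall of this sum lay mostly in Epcam. Sftpc averaged 5.8 RPKM at 24 h and 7.2 RPKM in naive, and Scgb1a1 8.36 and 7.6 RPKM, neither of them called. Sftpb averaged 0.342 RPKM at 24 h and 0.191 RPKM in naive, and Krt8 was near 0. The part of these cell types in the results below was not tested. The naive and 24 h libraries numbered 4 stood apart in the copies. Naive library 4 had 6 to 7 reads each on Gm8730, Gm15772 and Gm10260, where the other 3 had 0 to 2, and 24 h library 4 had 40, 23 and 38, where the other 3 had 2 to 11.

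To compare members with each other, recovered reads were scaled to 1000000 library reads (RPM) and divided by the kilobases of the main mRNA, since the lengths behind the deposited values had a median of 3.94 times those of the main mRNAs and were as low as 0.656 times. On this scale the level of the 82 tested members in naive libraries had a median of 316, with 225 and 465 as quartiles. Rplp1, an acidic protein of the stalk that recruits translation factors, was highest at 1269 ± 55.8 (SD, n = 4). Rps9, a small subunit protein beside the mRNA entry, stood at 890.1 ± 37.0 and Rpl32, a large subunit surface protein, at 754 ± 42.9, and these 3 were separated from each other by more than their SD. Rpl41, Rpl8, Rps14, Rplp2 and Rps28 lay between 591 and 619, and neighbours in this order did not differ beyond their spread. The median was 285 for large and 350.1 for small subunit genes. These levels and their order depend on the annotated transcript taken as main mRNA, which had 2045 bases for Rpl5 and 421 for Rplp2. Rplp2, the partner of Rplp1 in the stalk, had a level of 595 ± 37.1 and Rplp0, the base to which both attach, of 540.4 ± 9.81 (SD, n = 4 each), so the 3 stalk mRNAs were not in equal amounts. The lowest and the next lowest tested member were paralogs. Rpl7l1, found in ribosome precursors in the nucleolus, had 57.1 ± 0.873 and Rpl3l, the striated muscle form of Rpl3, 2.1 ± 0.599 (SD, n = 4 each). Members with more copies did not stand clearly lower (Spearman's rho of -0.10 across 82 members, which share libraries and are not independent).

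**Figure D1:**
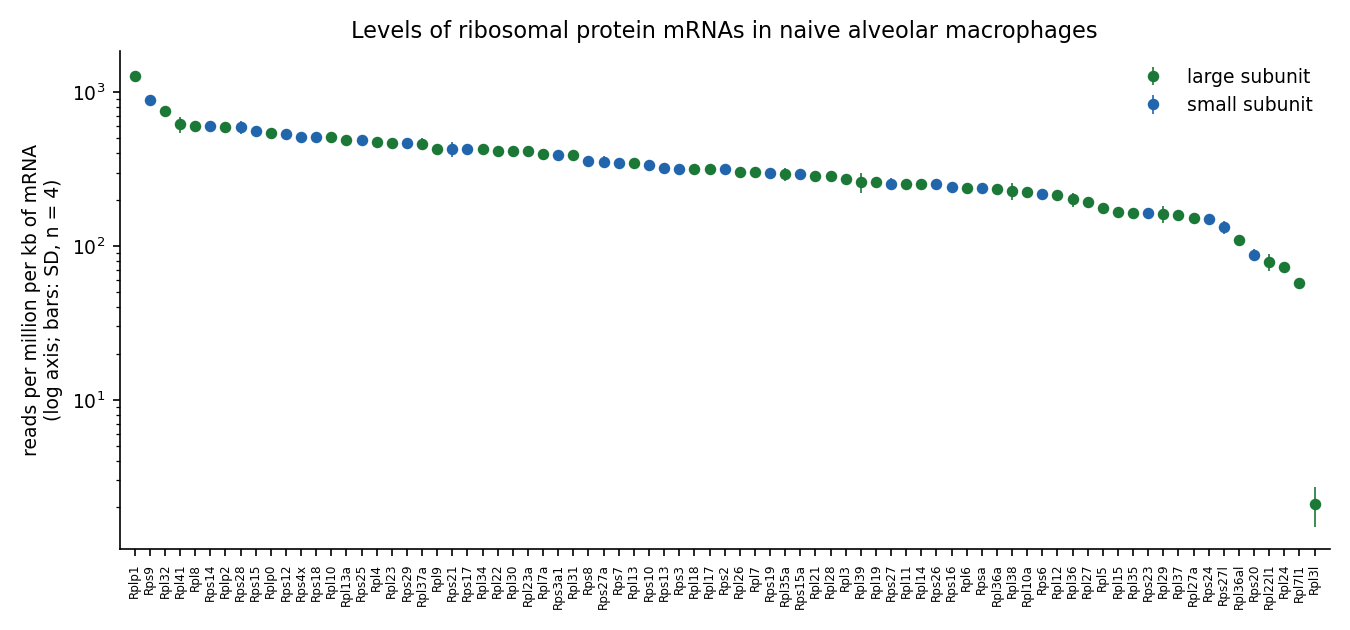
Level of 79 of the 82 tested ribosomal protein mRNAs in the 4 naive libraries, in RPM per kilobase of mRNA on a log axis (points are means and bars SD), ordered from the highest, with large and small subunit genes in different colours. The quartiles of the levels are 225 and 465, Rplp1 is highest at 1269 and Rpl3l lowest at 2.1.

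Both subunits had their highest share of reads at 24 h. Large subunit genes took 1.26 ± 0.049% of library reads in naive, 1.24 ± 0.0418% at 2 h and 1.36 ± 0.0455% at 24 h (SD, n = 4 each). Small subunit genes took 0.887 ± 0.0398%, 0.862 ± 0.0368% and 0.957 ± 0.0379% in the same order. For the large subunit the 4 libraries ranged from 1.30 to 1.41% at 24 h, against 1.23 to 1.33% in naive, and for the small subunit from 0.920 to 1.01% at 24 h, against 0.862 to 0.946% in naive. The 24 h and naive ranges overlapped through naive library 4, which had the highest share of its group for both subunits and is the shallowest library. The ratio of large to small subunit reads was 1.42 ± 0.00873 in naive, 1.44 ± 0.0154 at 2 h and 1.42 ± 0.0172 at 24 h (SD, n = 4 each), and the ranges of the 3 groups overlapped. In bulk libraries such as these, fewer cells of a type and less RNA per cell cannot be told apart.

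At 24 h against naive the medians of both subunits were displaced upward, by a log2 fold change of 0.14 for large and 0.09 for small subunit genes. The difference of 0.0499 was not tested. It was 0.0307 to 0.0542 with single libraries left out and 0.0139 with quantile normalisation. Single members spread from a log2 fold change of -0.40 to 0.41 for large and from -0.28 to 0.59 for small subunit genes in this comparison. The median displacement of the large subunit genes, in log2(RPKM + 1), was 0.15, 0.22, 0.04 and 0.12 in the 4 libraries at 24 h, against -0.03, -0.04, -0.01 and 0.09 in naive. That of the small subunit genes was 0.11, 0.18, 0.05 and 0.12 at 24 h, against -0.03, -0.05, -0.01 and 0.10 in naive. In 24 h library 2, which had the highest medians, 66 of 82 members lay above their naive mean, and in naive library 4 it was 75 of 82. The spread of a member between libraries of a group was small. Its median coefficient of variation was 5.24% in naive, 5.44% at 2 h and 5.93% at 24 h, where counting alone would give 2.36%, 2.19% and 1.94%.

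**Figure D2:**
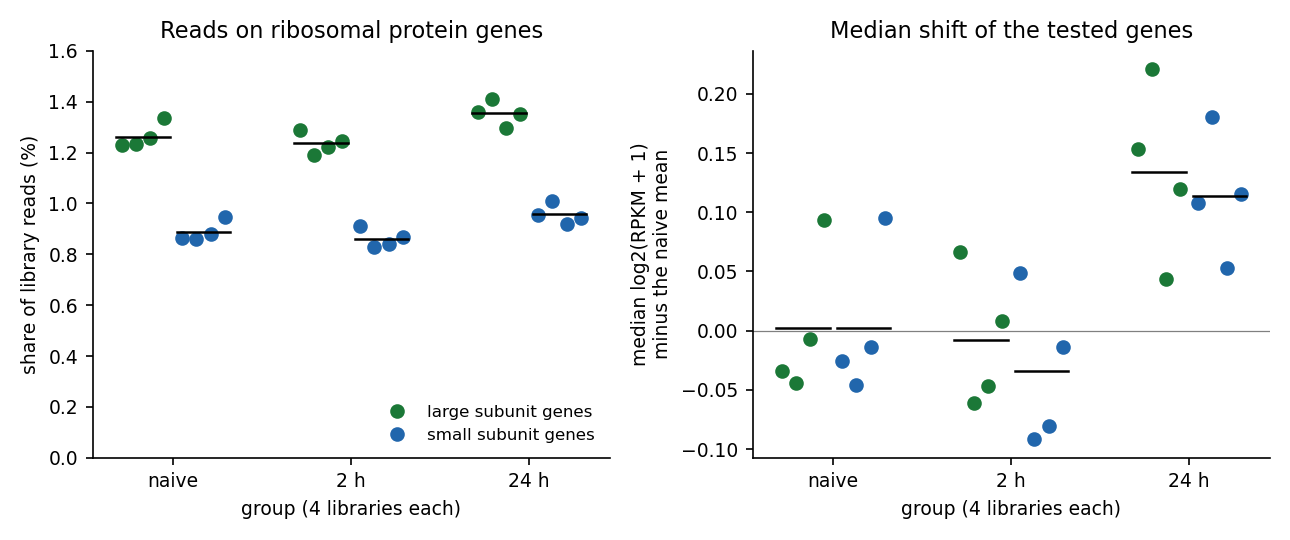
Left, share of library reads on large and small subunit genes, and right, the median over tested genes of log2(RPKM + 1) minus the naive mean, by group, with 1 point a library and the mean as a line. The 24 h libraries lie at 1.30 to 1.41% for the large and 0.920 to 1.01% for the small subunit, and naive library 4 reaches into both ranges.

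The comparison of 2 h with naive asks what had changed in the first hours of reperfusion. At 2 h 2 of 82 members were higher and 8 lower than in naive (limma, Benjamini-Hochberg adjusted p under 0.05). Over all 11419 tested genes 14.7% were higher and 22.0% lower. The median log2 fold change was -0.01 for large and -0.03 for small subunit genes, against -0.04 for all tested genes, and 37 of 82 members had a positive value. Of the large subunit genes 2 were higher and 6 lower, and of the small subunit genes 0 were higher and 2 lower. No small subunit gene was higher at an unadjusted p under 0.05 either. Limma's voom on recovered reads and median-ratio scaling each called 0 as well, with 1 at an unadjusted p under 0.05 in each. Without the naive and 24 h libraries numbered 4, however, Rps27 of the small subunit was called higher (log2 fold change 0.25, limma adjusted p = 0.0198). All 4 libraries lay above naive for 3 members (14.0% of all tested genes) and below naive for 9 (20.5%). Median-ratio scaling called 3 higher and 5 lower with positive medians for both subunits, and quantile normalisation 1 and 12. Leaving out naive library 2 or 4 or 2 h library 2 or 3 left 5 lower, and leaving out naive library 1 or 3 or 2 h library 4 left 1 higher.

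Rpl10a, a protein of the L1 stalk where spent transfer RNA leaves, was the larger of the 2 rises. Its RPKM values were 33.2, 31.5, 35.9 and 32.8 at 2 h, against 28.6, 26.0, 25.9 and 27.2 in naive. Every 2 h library was above every naive library, with a log2 fold change of 0.30 ± 0.06 (SE, adjusted p = 0.00242). Rpl4, which lines the tunnel for the growing protein, had 554, 533, 549 and 564 RPKM at 2 h, against 499.8, 515, 513 and 514 in naive. These groups did not overlap either, with a log2 fold change of 0.11 ± 0.03 (SE, adjusted p = 0.0245), and the call was lost without naive library 1 or 3 or without 2 h library 1 or 4. Rpl11, which carries 5S ribosomal RNA into the large subunit and binds Mdm2, lay between 36.3 and 37.8 RPKM at 2 h, against 32.9 to 34.8 in naive, and missed the threshold (log2 fold change 0.14, adjusted p = 0.0519).

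Rpl26, a protein near the exit of the tunnel, fell most at 2 h by its own row. It had 34.3, 30.1, 28.9 and 34.5 RPKM at 2 h, against 44.3, 46.0, 45.6 and 51.5 in naive. The groups did not overlap, and the log2 fold change was -0.54 ± 0.07 (SE, adjusted p = 0.000166). Its copy Gm15772 had 441, 427, 367 and 261 reads in the 4 libraries at 2 h, against 0, 1, 0 and 6 in naive. In RPM, the row of Rpl26 held 109.2 ± 9.80 at 2 h and 160.0 ± 10.8 in naive, and its copies 40.9 ± 3.14 at 2 h and 0.618 ± 0.583 in naive (SD, n = 4 each). Member and copies together held 150.1 ± 8.67 at 2 h and 160.6 ± 11.3 in naive, and summed in this way the log2 fold change was -0.09 (adjusted p = 0.245). The fall of Rpl26 was thus not called once its copies were added, and copies made up 27.4% of the sum at 2 h, against 0.368% in naive.

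Rplp0, the stalk base, had 168, 164, 156 and 167 RPKM at 2 h, against 204, 212, 211 and 210.2 in naive. The groups did not overlap, with a log2 fold change of -0.35 ± 0.04 (SE, adjusted p = 0.000154). Gm8730 had 580, 515, 455 and 326 reads at 2 h, against 2, 1, 0 and 7 in naive, and Gm9625 124, 95, 131 and 57 reads at 2 h, against 3, 3, 2 and 4 in naive. With its copies Rplp0 held 639 ± 17.7 RPM at 2 h and 735 ± 13.5 in naive (SD, n = 4 each), and the fall was smaller but still called, at -0.20 (adjusted p = 0.00345). Rps7, a small subunit protein, fell by 0.13 on the log2 scale by its own row (adjusted p = 0.0293), a call also lost without naive library 1, 2 or 4 or 2 h library 2 or 3. Summed with Gm6472 and its other copies it held 284 ± 13.0 RPM at 2 h and 285 ± 7.63 in naive (SD, n = 4 each), which was not called (adjusted p = 0.936). For Rps18 the log2 fold change at 2 h was -0.10 by its own row and 0.07 with Gm10260 and its other copies, neither of them called (adjusted p = 0.137 and 0.293). The cause of the reads on copies at 2 h was not tested.

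**Figure D3:**
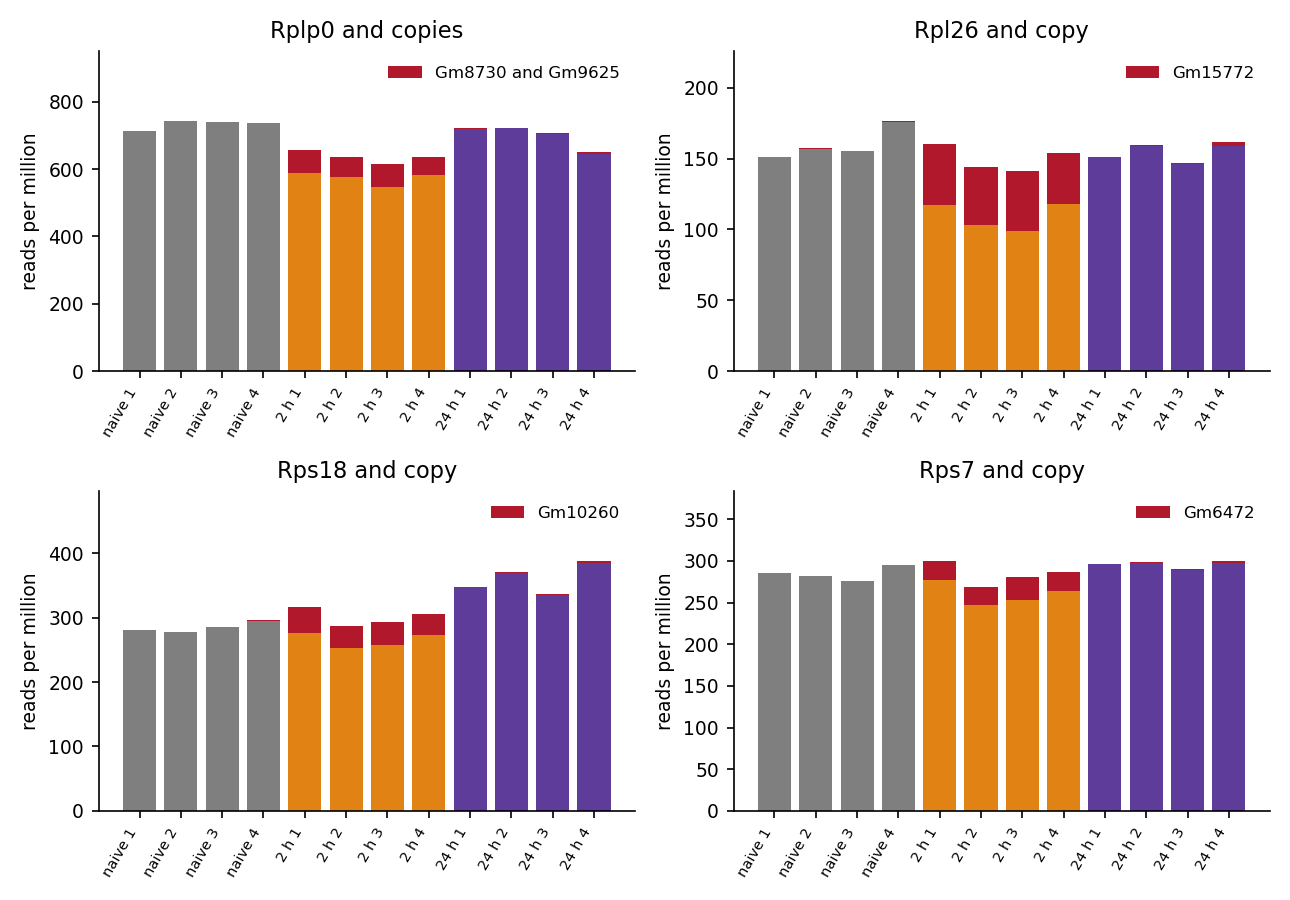
RPM in each of the 12 libraries for Rplp0, Rpl26, Rps18 and Rps7, with the reads of the named copies stacked on top in red. Copies are visible in the 4 libraries at 2 h and close to 0 in naive, and Rpl26 with all its copies sums to 142 to 160 RPM at 2 h, against 152 to 177 RPM in naive.

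For the other 5 members that fell at 2 h, the value with copies was close to that of the own row, except for Rpl29. Rpl35a, a large subunit protein altered in some families with Diamond-Blackfan anemia, had 18.4, 15.5, 16.3 and 18.4 RPKM at 2 h, against 22.3, 21.9, 22.4 and 26.4 in naive. All 2 h libraries were below all naive libraries, with a log2 fold change of -0.42 ± 0.08 (SE, adjusted p = 0.00177) and of -0.41 with its 22 copies. Rpl29, a large subunit protein that also binds heparin, had 55.9, 45.1, 42.5 and 49.4 RPKM at 2 h, against 60.9, 61.8, 60.7 and 77.2 in naive. It fell by 0.43 on the log2 scale (SE 0.11, adjusted p = 0.00876), and by 0.35 with its 43 copies (adjusted p = 0.0175). Rpl21 fell by 0.27 (adjusted p = 0.00518) and by 0.26 with its 57 copies. Rps3a1, of the small subunit, fell by 0.15 (adjusted p = 0.0472), a call lost in 16 of 28 other settings, among them the removal of any single library but naive library 1 or 24 h library 4. Rpl15, the last of the 8, fell by 0.14 (adjusted p = 0.0495), and its call was lost in 21 of 28 settings, among them the sum with copies and the removal of any single library but naive library 1. Of the 8 falls at 2 h 5 were called when members were summed with their copies.

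The comparison of 24 h with naive asks what had changed a day after reperfusion. At 24 h 37 of 82 members (45.1%) were higher and 5 (6.1%) lower than in naive by limma, where 25.3% of all tested genes were higher and 20.6% lower (45.9% in either direction). The median log2 fold change of the members was 0.13, with 0.14 for the large and 0.09 for the small subunit, against 0.00 for all tested genes. Of 50 large subunit genes 23 were higher and 2 lower, and of 32 small subunit genes 14 were higher and 3 lower. Positive values were found for 37 of 50 large and 27 of 32 small subunit genes, against 50.4% of all tested genes. In 28 members all 24 h libraries lay above all naive libraries (25.8% of all tested genes), and in 5 all lay below (22.0%). Scaling to equal totals gave 29 higher and 10 lower, with a median of 0.06 for the small subunit, and quantile normalisation a median of 0.09 for the large subunit. Without 24 h library 2 there were 23 higher and without naive library 2 there were 24, while 36 were higher without the naive and 24 h libraries numbered 4, with medians of 0.17 for the large and 0.15 for the small subunit. Without naive library 3 or 4 there were 3 lower. Of the 29 tested members with a pyrimidine run at the start 16 were higher and 1 lower at 24 h than in naive, with a median log2 fold change of 0.15. Of the 33 tested members without one 14 were higher and 1 lower, with a median of 0.09, and the difference was not tested.

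**Figure D4:**
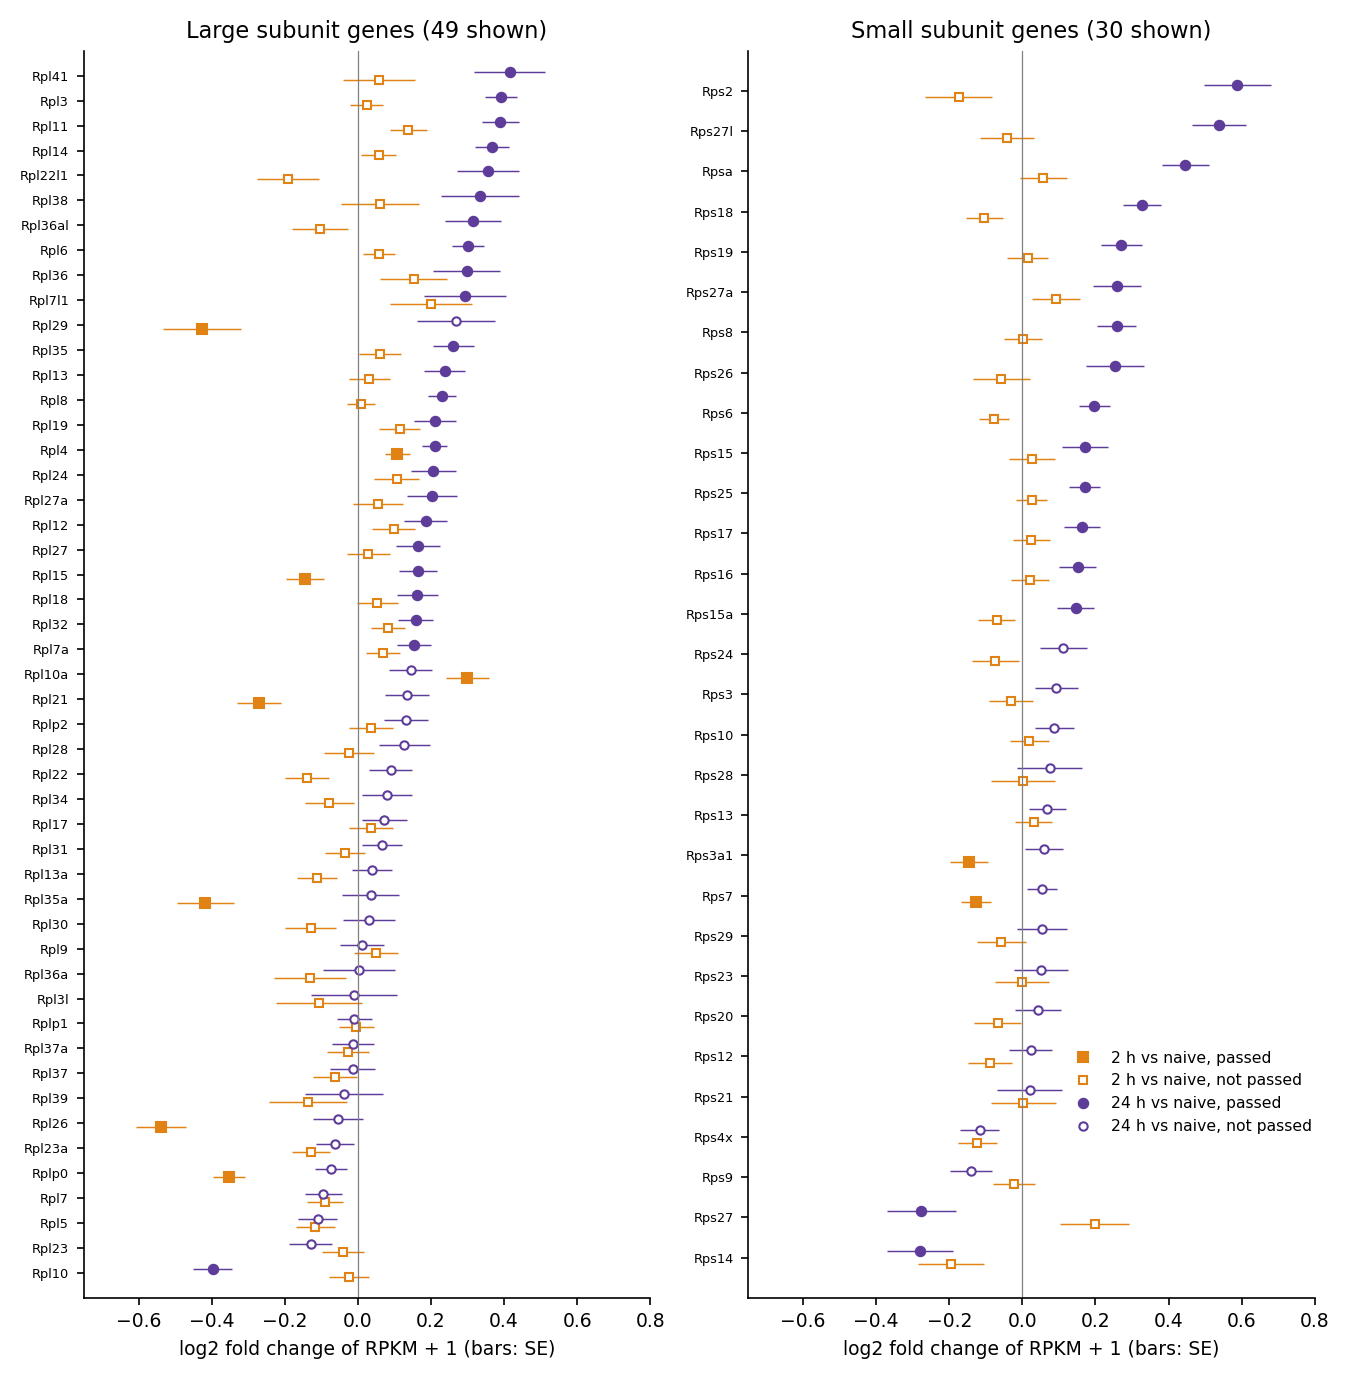
Log2 fold changes of RPKM + 1 for 49 large (left) and 30 small (right) subunit genes, 79 of the 82 tested, with bars for the SE, at 2 h vs naive (squares) and 24 h vs naive (circles), ordered by the 24 h value. Filled symbols passed at an adjusted p under 0.05, and 37 circles are filled on the higher side and 3 on the lower (of the 3 tested members not drawn, 2 are among the 5 lower).

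Among small subunit genes, Rps2, a protein at the entry of the mRNA channel, rose most at 24 h. It had 44.8, 45.1, 44.3 and 48.7 RPKM in naive, 41.6, 40.1, 40.2 and 39.6 at 2 h and 70.1, 83.8, 68.9 and 56.8 at 24 h. The 24 h libraries were above all others, and all 2 h libraries were below naive. At 24 h the log2 fold change was 0.59 ± 0.09 against naive (SE, adjusted p = 0.000259), and it was 0.58 when its 41 copies were added. Rpsa, which is also known as a precursor of the laminin receptor, had 286, 308, 278 and 242 RPKM at 24 h, against 198, 203, 209.7 and 203 in naive. It did not overlap, with a log2 fold change of 0.45 ± 0.06 (SE, adjusted p = 0.000155). Rps18 followed with a log2 fold change of 0.33 (adjusted p = 0.000313), Rps19, altered in many families with Diamond-Blackfan anemia, with 0.27 (adjusted p = 0.00224), and Rps6, the substrate of the S6 kinases, with 0.20 (adjusted p = 0.00241). Rps3, also at the mRNA entry, averaged 92.9 ± 5.75 RPKM at 24 h and 87.1 ± 5.74 RPKM in naive (SD, n = 4 each) and did not pass (adjusted p = 0.224).

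Large subunit rises at 24 h were led by Rpl41, Rpl3 and Rpl11. Rpl41, a very short basic peptide, had 95.6, 101, 77.4 and 90.3 RPKM at 24 h, against 68.9, 62.3, 62.1 and 79.3 in naive. The groups overlapped through naive library 4, and the log2 fold change was 0.41 ± 0.10 (SE, adjusted p = 0.00468). Rpl3, which reaches to the peptidyl transferase centre, had 66.7, 68.2, 68.7 and 67.7 RPKM at 24 h, against 49.7, 51.0, 53.1 and 52.2 in naive. Its groups lay far apart, with a log2 fold change of 0.39 ± 0.04 (SE, adjusted p = 2.63e-05). Rpl11 had 43.3, 49.1, 41.8 and 43.5 RPKM at 24 h, against 32.9, 33.3, 34.8 and 33.3 in naive, with a log2 fold change of 0.39 ± 0.05 (SE, adjusted p = 7.58e-05). Rpl5, its partner in the particle with 5S ribosomal RNA, had 53.5 ± 2.65 RPKM at 24 h and 57.8 ± 2.56 RPKM in naive (SD, n = 4 each), which did not pass (log2 fold change -0.11, adjusted p = 0.116). Rpl14 had a log2 fold change of 0.37 (adjusted p = 6.55e-05).

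Of the 5 members that fell at 24 h, 3 are described. Rpl10, which joins the large subunit late in the cytoplasm, had 51.6, 52.0, 52.7 and 55.5 RPKM in naive, 55.6, 49.3, 49.5 and 54.2 at 2 h and 41.8, 38.1, 38.3 and 41.7 at 24 h. All 24 h libraries were below all others, with a log2 fold change against naive of -0.40 ± 0.05 (SE, adjusted p = 0.000107). Rps14, whose loss in human 5q deletions impairs red cell formation, had 86.7, 91.2, 92.9 and 68.2 RPKM at 24 h, against 93.9, 102, 106 and 108 in naive. Its log2 fold change was -0.28 (adjusted p = 0.0239), and the call was lost without naive library 3 or 4. Without both the naive and the 24 h library numbered 4 it was -0.16 (adjusted p = 0.0859). Rps27, a zinc finger protein of the small subunit, had a log2 fold change of -0.28 (adjusted p = 0.0317), with overlapping groups, and its call was lost when naive library 3 or 4 or 24 h library 1, 2 or 3 was left out. Of the stalk proteins, Rplp0, Rplp1 and Rplp2 did not pass at 24 h against naive (adjusted p = 0.200, 0.878 and 0.0941), nor did Rpl13a, which in human myeloid cells also silences translation of inflammatory mRNAs (adjusted p = 0.592).

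The comparison of 24 h with 2 h asks what differed between the 2 times after reperfusion. It shares its libraries with the comparisons above and is given for its own values. At 24 h 34 of 82 members (41.5%) were higher and 5 (6.1%) lower than at 2 h by limma, where 30.9% of all tested genes were higher and 21.5% lower. The median log2 fold change was 0.14 for large and 0.13 for small subunit genes, against 0.05 for all tested genes, and 71 of 82 members had a positive value, against 55.2% of all tested genes. Of the large subunit genes 20 were higher and 3 lower, and of the small subunit genes 14 were higher and 2 lower. In 29 members all 24 h libraries lay above all 2 h libraries (27.5% of all tested genes), and in 4 below (18.2%). With median-ratio scaling the medians were 0.07 for large and 0.06 for small subunit genes, against -0.01 for all tested genes, and 24 members were higher and 7 lower. Each of naive library 2, 2 h libraries 1 and 4 and 24 h libraries 1, 2 and 3, left out, gave 3 lower.

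Rps2 had the largest log2 fold change of 24 h against 2 h, 0.76 ± 0.09 (SE, adjusted p = 2.65e-05). Rpl29 followed with 0.70 ± 0.11 (SE, adjusted p = 0.000185), with 82.9, 84.1, 66.8 and 80.7 RPKM at 24 h, against 55.9, 45.1, 42.5 and 49.4 at 2 h. At 24 h it was not called against naive by its own row (adjusted p = 0.0568), and was called with its copies (adjusted p = 0.0438). Rpl35a, with 24.0, 24.5, 21.6 and 25.2 RPKM at 24 h, overlapped naive and was higher than at 2 h by a log2 fold change of 0.45 (adjusted p = 0.000439). Rpl21 overlapped naive too and was higher than at 2 h by 0.41 (adjusted p = 0.000164). Rpl26 was higher by 0.48 by its own row (adjusted p = 9.88e-05) and by 0.04 with its copies (adjusted p = 0.561), and Rps7 by 0.18 (adjusted p = 0.00291) and 0.06 (adjusted p = 0.203). Rps18 was higher in either count, by 0.43 and by 0.26 with its copies (adjusted p = 2.84e-05 and 0.00163).

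Among the 5 members lower at 24 h than at 2 h were Rps27, Rpl10 and Rpl10a. Rps27 had 319, 317, 349 and 384 RPKM in naive, 419, 391, 366 and 392 at 2 h and 266, 288, 242 and 338 at 24 h. All 24 h libraries were below all 2 h libraries (log2 fold change -0.47 ± 0.09 SE, adjusted p = 0.00128). Its coding sequence is identical to that of Rps27rt, an intronless gene on chromosome 9 (114982366 to 114982739) with 51.9 ± 2.92 RPM in naive, 55.8 ± 4.21 at 2 h and 40.3 ± 2.14 at 24 h (SD, n = 4 each). Which of them its reads belong to is therefore uncertain, and with its copies the log2 fold change was also -0.47 (adjusted p = 0.000338). Rpl10 was lower by a log2 fold change of -0.37 ± 0.05 (SE, adjusted p = 0.000124). Rpl10a, the riser at 2 h, lay at 31.0, 30.8, 27.1 and 30.8 RPKM at 24 h, and its log2 fold change of -0.15 against 2 h (adjusted p = 0.0444) was lost in 16 of 28 other settings, among them the removal of any 2 h or 24 h library but 2 h library 2.

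Several members are paralogs that can take the place of a sister protein in the ribosome. Rps27l, a target of p53 in human and mouse cells, had 23.1, 23.0, 23.5 and 28.1 RPKM in naive, 23.0, 22.4, 24.6 and 24.5 at 2 h and 35.3, 39.8, 33.1 and 35.2 at 24 h. Every 24 h library was above every other library, with a log2 fold change of 0.54 ± 0.07 against naive (SE, adjusted p = 0.000116) and of 0.58 ± 0.07 against 2 h (SE, adjusted p = 4.78e-05). The level of Rps27l per kilobase was 52.3 ± 2.00% of that of Rps27 in naive, 44.3 ± 4.13% at 2 h and 93.7 ± 11.7% at 24 h (SD, n = 4 each). The 24 h ratios, 76.3 to 101%, did not overlap the naive ones, 49.3 to 53.6%. These ratios use the row of Rps27 alone, and how its reads were divided from those of Rps27rt is not given in the sources.

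Rpl22l1, the paralog of the RNA-binding Rpl22, had 6.85, 7.23, 6.95 and 8.85 RPKM in naive, 6.39, 5.72, 6.29 and 7.23 at 2 h and 10.5, 9.66, 8.91 and 10.2 at 24 h. At 24 h it was above every naive and 2 h library, with a log2 fold change of 0.36 ± 0.08 against naive (SE, adjusted p = 0.00476) and of 0.55 ± 0.08 against 2 h (SE, adjusted p = 0.000208). Its level was 18.9 ± 1.56% of that of Rpl22 in naive, 17.9 ± 1.24% at 2 h and 23.4 ± 1.78% at 24 h (SD, n = 4 each). Rpl22 itself did not pass at 24 h against naive (log2 fold change 0.09, adjusted p = 0.241) and was higher than at 2 h by 0.23 (adjusted p = 0.00659). Rpl36al rose by a log2 fold change of 0.31 at 24 h against naive (adjusted p = 0.00556), while Rpl36a had 30.9 ± 3.12 RPKM at 24 h and 30.8 ± 2.37 RPKM in naive (SD, n = 4 each, adjusted p = 0.987). The level of Rpl36al was 59.0 ± 1.96% of that of Rpl36a at 24 h and 47.3 ± 4.79% in naive (SD, n = 4 each). Rpl7l1 passed narrowly at 24 h against naive (log2 fold change 0.29, adjusted p = 0.0491), a call lost in 16 of 28 other settings, each naive and each 24 h library left out among them. Rpl3l stayed near 1 RPKM in all groups, with 13 to 39 reads a library, and was 0.565 ± 0.0769% of Rpl3 at 24 h and 0.769 ± 0.234% in naive (SD, n = 4 each). Rpl39l, known from testis, was at 0.755 ± 0.406% of Rpl39 at 24 h and 0.66 ± 0.668% in naive (SD, n = 4 each), on very few reads.

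**Figure D5:**
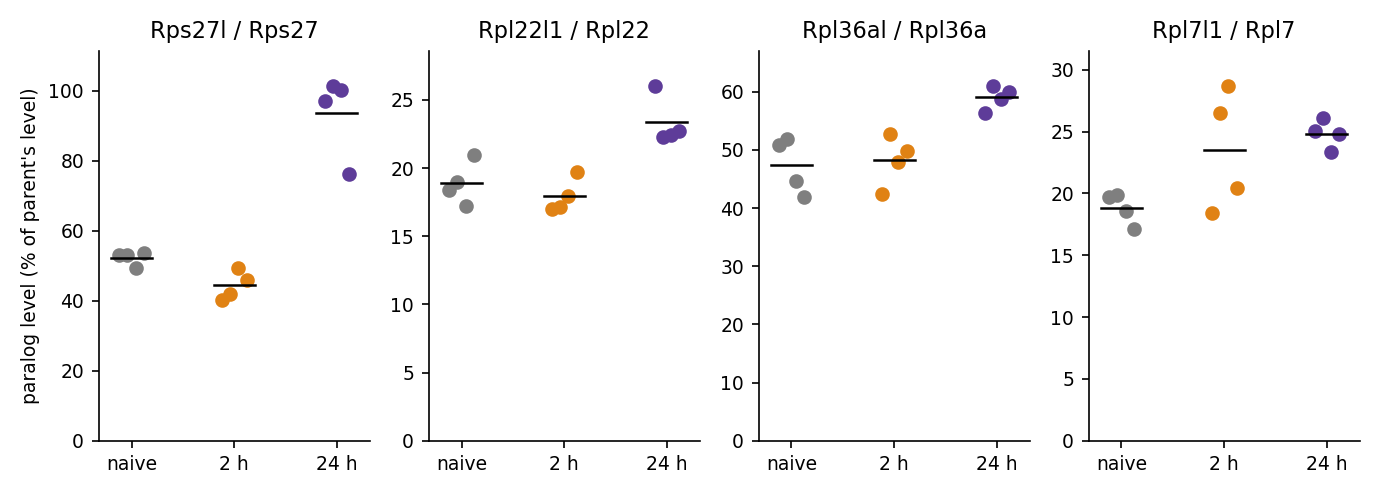
Level of 4 paralogs per kilobase of mRNA as a percentage of the level of the sister gene, with 1 point a library and group means as lines. For Rps27l the points are 49.3 to 53.6% in naive and 76.3 to 101% at 24 h, and for Rpl22l1 and Rpl36al the 24 h points also lie above all naive and 2 h points.

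Of 22 other genes whose mRNAs begin with a TOP tract, among them elongation and initiation factors, 10 were higher and 4 lower at 24 h than in naive, with a median log2 fold change of 0.10, and 1 was higher and 1 lower at 2 h. Of all tested genes 25.3% were higher and 20.6% lower at 24 h, and 14.7% higher and 22.0% lower at 2 h. Hnrnpa1, an RNA-binding splicing factor, rose at both times, with 81.6 ± 8.04 RPKM at 24 h and 38.1 ± 2.28 RPKM in naive (SD, n = 4 each, log2 fold change 1.08). Eef1g, a subunit of the elongation factor that reloads eEF1A, was higher at 24 h by a log2 fold change of 0.85 and the translation initiation factor subunit Eif3l by 0.39. Nap1l1, a histone chaperone, was lower at 2 h by -0.18 (adjusted p = 0.0164, lost without naive library 3) and higher at 24 h by 0.53.

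Chaperones and nuclear importers of ribosomal proteins were higher at 24 h than in naive in 7 of 11 tested genes and lower in 0, with a median log2 fold change of 0.34, where 25.3% of all tested genes were higher and 20.6% lower. None was lower at an unadjusted p under 0.05, and voom called 0 lower too. At 2 h 2 were higher and 1 lower, where 14.7% of all tested genes were higher and 22.0% lower. Kpnb1, importin beta, had 68.4 ± 2.67 RPKM at 24 h and 34.7 ± 2.04 RPKM in naive (SD, n = 4 each), a log2 fold change of 0.96. Ipo9, another importin, was higher by 0.62, and Ipo7 was lower at 2 h by -0.33 and not called at 24 h (adjusted p = 0.12). Ltv1, an assembly factor of the small subunit, was higher at both times, by 0.42 at 2 h and 0.40 at 24 h. Tsr2, the chaperone of Rps26, was higher by 0.39 at 2 h and 0.30 at 24 h, from a level near 1 RPKM, and the 24 h call was lost without the naive and 24 h libraries numbered 4.

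Of 19 tested regulators of ribosome production and of TOP mRNAs, 4 were higher and 2 lower at 2 h, and 4 were higher and 6 lower at 24 h, with medians of 0.06 and -0.01. Of all tested genes 14.7% were higher and 22.0% lower at 2 h, and 25.3% higher and 20.6% lower at 24 h. Myc, a transcription factor that drives ribosomal protein genes, had 3.25 ± 0.285 RPKM at 24 h and 5.58 ± 0.764 RPKM in naive (SD, n = 4 each), a log2 fold change of -0.63. Larp1 was higher at both times, by 0.37 at 2 h and 0.23 at 24 h, the second lost without naive library 2 or 4 or 24 h library 1, 2 or 4. Eif4e, the cap-binding factor, was higher by 0.41 at 2 h and 0.70 at 24 h. Rheb, the activator of mTOR complex 1, was higher by 0.27 at 24 h, and Rps6ka1 and Rps6ka3, ribosomal S6 kinases of the RSK family that ERK activates, had log2 fold changes of -0.22 and -0.36 at 24 h, that of Rps6ka1 lost without naive library 1 or 3 or 24 h library 2 or 4. Rps6kb1, the S6 kinase that mTOR complex 1 activates, had overlapping groups at 2 h, with 5.30 ± 0.640 RPKM at 2 h and 4.35 ± 0.186 RPKM in naive (SD, n = 4 each, log2 fold change 0.23, adjusted p = 0.0298), and was not called at 24 h (adjusted p = 0.207). Mdm2, which Rpl5 and Rpl11 bind, was higher at 2 h, with 7.25 ± 0.946 RPKM at 2 h and 4.95 ± 0.301 RPKM in naive (SD, n = 4 each), and was not called at 24 h against naive (adjusted p = 0.629).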

How the data were processed

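For each Ensembl gene, the authors deposited RPKM values (reads per kilobase, scaled to 1000000 library reads) of 12 libraries of alveolar macrophage RNA, isolated with the PicoPure kit per the labels' protocols. The submitters' processing notes name bcl2fastq, TopHat2, HTSeq and the build mm10. The sources used here do not give versions, strand, gene lengths or the treatment of reads with several matches. Each library was grouped by its time point label. Symbols, positions and transcripts came from GENCODE M21 (42546 of 43430 genes had a symbol).

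Whole reads were recovered from the RPKM steps (within 0.02 of a read) for 11396 of 11419 tested genes (99.8%), with library totals of 6112586 to 11997945 reads. For a gene of 1 kb, 3 reads correspond to 0.25 to 0.491 RPKM, a limit that covers counting error only. Values were taken as log2(RPKM + 1), and limma 3.58.1 (R 4.3.3) with a variance trend was run on all 12 libraries and every gene at or above 1 RPKM in at least 4 of them. Adjustment of the two-sided p-values (Benjamini-Hochberg) ran over 11419 genes in each of 3 comparisons, and p-values measure the spread between libraries, which may be technical. Fold changes on this scale understate the change of low genes. Copies were found with BLAST 2.17.0, each was given to its best-scoring member, and their reads were summed with the member's in an alternative. The steps were tested on simulated data. The closing section gives 28 other settings, 27 of them planned, and replicate numbers were not used as pairs.

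The members and lists were chosen with earlier results of these data known. In each comparison the named members are the 4 called ones that were most increased and the 4 most decreased, to which were added paralogs with their parents, members with known roles, the 3 highest and 3 lowest members by RPKM, and up to 3 genes of each pathway list with the smallest p. Rpl8, Rpl14, Rpl15, Rpl21, Rps3a1, Rps7, Rps18, Rps28, Rps6kb1, Chil3, Csf3r, Epcam, Sftpc, Scgb1a1 and the copies were named after their values were seen. Some genes of these lists are not reported here.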

Additional observations from a re-analysis of the deposited data

Results flagged for a closer look

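In 8 of 126 groups of 4 values examined, 1 library lay far from the other 3, where chance gives about 1 in 20. Naive library 4 was highest for Rpl29 (77.2 RPKM), Rpl35a (26.4 RPKM), Rpl39 (120.5 RPKM) and Rps27l (28.1 RPKM) and lowest for the ratio of large to small subunit reads (1.41). Naive library 1 was lowest for Rpl4 (499.8 RPKM) and 2 h library 2 for Rps19 (21.7 RPKM). Rpl10a was lowest in 24 h library 3 (27.1 RPKM).

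For 27 of 38 named members the change from naive at 24 h differed from that at 2 h, tested by limma as 24 h against 2 h. Of all tested genes 52.5% were called in this comparison. Some of the 38 were named because they were called in it, so their share is not a result about the members. The difference (log2) was 0.76 for Rps2, 0.70 for Rpl29, 0.58 for Rps27l, 0.55 for Rpl22l1, 0.48 for Rpl26, 0.45 for Rpl35a, 0.43 for Rps18, 0.42 for Rpl36al, 0.41 for Rpl21, 0.39 for Rpsa, 0.37 for Rpl3, 0.36 for Rpl41, 0.31 for Rpl14 and Rpl15, 0.28 for Rplp0 and Rps6, 0.26 for Rps19, 0.25 for Rpl11, 0.23 for Rpl22, 0.22 for Rps15a, 0.21 for Rps3a1, 0.18 for Rps7, 0.15 for Rpl13a and 0.10 for Rpl4. It was -0.47 for Rps27, -0.37 for Rpl10 and -0.15 for Rpl10a. The call of Rpl13a was lost in 9 of 28 other settings and that of Rpl4 in 6.

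Of 747 copies 16 averaged at least 20 reads in a group, and 6 of these had at most 5% of their 2 h level in naive. At 2 h Gm8730 averaged 51.0 RPM, Gm15772 40.7, Gm10260 35.8, Gm6472 23.2, Gm9625 11.1 and Rpl3-ps1 7.03. At 24 h they averaged 1.64, 0.967, 1.64, 1.14, 0.773 and 0.457 in the same order.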

How the results depend on the processing

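Of 171 named results 98 were called, and 72 of these kept their call and direction in all 28 other settings. At 2 h against naive 1 member was higher with no filter, quantile normalisation, no variance trend or voom, and 4 with library weights. Lower were 5 with no filter, median-ratio scaling, no variance trend, voom, sums with copies, or without the naive and 24 h libraries numbered 4. At 24 h against naive 2 were lower with no filter, 10 with equal totals and 8 with library weights. At 24 h against 2 h 3 were lower with no filter, no variance trend or the 2 groups alone. The median log2 fold change of large minus small subunit genes was 0.013 at 2 h, -0.0145 with quantile normalisation and -0.0109 with copies. For 24 h against naive it was 0.0499, 0.0139 with quantile normalisation and 0.0173 without the libraries numbered 4, and for 24 h against 2 h it was 0.000908 and -0.0321 with quantile normalisation. Rplp1 reversed to 0.1282 at 24 h against 2 h with quantile normalisation (limma adjusted p = 0.0434). The causes were not tested.

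With single libraries left out, 1 to 3 members were higher and 5 to 9 lower at 2 h against naive, 23 to 38 higher and 3 to 6 lower at 24 h against naive, and 29 to 41 higher and 3 to 4 lower at 24 h against 2 h. The subunit difference ranged from 0.00952 to 0.0249, from 0.0307 to 0.0542 and from -0.0145 to 0.00845 in the same order. With a replicate block, 2 were higher and 7 lower at 2 h, 33 and 6 at 24 h against naive, and 38 and 4 at 24 h against 2 h. Correlations of same-numbered libraries were -0.0426 to 0.0548, and 2 of 12 libraries correlated best with their own number. These values showed no pairing by number but cannot exclude it, since the animals behind each library are not stated. Depth limits Rpl3l and Rpl39l most.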
